A study of Mus musculus with 6 samples.

Results

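The genes described here are the mouse fatty acid elongases *Elovl1* to *Elovl7* and the desaturases *Fads1*, *Fads2* and *Fads3*. They were taken by gene name from the RNA-seq tables and are 10 of 56884 genes. The libraries came from cells that overexpressed PPARγ2 K382Q or PPARγ2 K382R, 3 biological replicates of each, and were made to ask how the acetylation state of this lysine affects early beige adipocyte differentiation. The K382Q mutant mimics acetylated and the K382R mutant deacetylated lysine. Both were HA-tagged mouse PPARγ2 delivered by a retroviral vector into a cell line made from the stromal vascular fraction (SVF) of mouse subcutaneous white adipose tissue (scWAT), followed by puromycin selection. Both groups were collected on day 2 of beige induction, and both had received T3 at 1 nM, rosiglitazone at 0.5 μM, isobutylmethylxanthine at 500 μM, indomethacin at 125 μM, insulin at 5 μg/mL and dexamethasone at 2 μg/mL. Each mutant was compared only with the other, since no cells with an empty vector or with unmutated PPARγ2 were analysed here. Whether the replicates are separate cultures of 1 stable line is not given in the sources used here, so p-values measure the spread between these libraries.

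Elongases carry out the first step of a cycle at the endoplasmic reticulum that adds a pair of carbons from malonyl-CoA to an acyl-CoA, and each elongase accepts chains of a certain length and saturation. ELOVL6 extends palmitate to stearate, and ELOVL1, ELOVL3 and ELOVL7 extend saturated and monounsaturated chains to very long lengths. ELOVL2 and ELOVL5 extend polyunsaturated chains that FADS2 and FADS1, the front-end desaturases, supply by inserting double bonds near the carboxyl end. ELOVL4 makes still longer chains of both kinds, and FADS3 acts on sphingoid bases. *Elovl3* is well known as a gene of brown and cold-exposed adipose tissue.

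Adipocyte genes were abundant in both groups. *Fabp4* reached 47893 ± 2099 TPM (transcript level per length as a share of the library, mean ± SD, n = 3 here and below) in PPARγ2 K382Q- and 37837 ± 617 TPM in PPARγ2 K382R-overexpressing cells, and *Plin1* reached 447 ± 9.5 and 462 ± 6.6 TPM. With K382Q, 2 of 7 adipocyte markers were higher and 3 lower, where 11.1% of all genes tested were higher and 36.9% lower. The balance depended on the scaling, with 3 higher and 2 lower after median-ratio scaling and 0 and 3 after quantile normalization. Over all genes, 19.8% were higher and 20.4% lower after median-ratio scaling, and 19.1% and 21% after quantile normalization. *Adipoq* was lower under each scaling (148 ± 1.2 against 360 ± 20.2 TPM). Of 7 preadipocyte and fibroblast markers, 5 were tested and all 5 were lower (4 after quantile normalization), and the summed level of the 7 was 117 to 127 TPM against 188 to 192 TPM. *Dpp4* was at 0 in all libraries. The summed level of 7 leukocyte markers was 3.55 to 4.79 TPM against 3.49 to 5.27 TPM, that of 5 endothelial markers 1.58 to 2.23 against 1.69 to 1.82 TPM, and that of 4 Schwann and glial markers 0.883 to 1.32 against 0.435 to 0.834 TPM. The part of the fibroblast markers in the results below was not tested. In bulk RNA, fewer cells of a type and less RNA per cell cannot be told apart. The aligned read length was 5.95 to 8.15 Gb per library.

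Of the 10 elongases and desaturases, 9 passed the filter on low values, which asked for 0.5 TPM or more in 3 or more libraries. By limma with Benjamini-Hochberg adjustment over 15426 genes, *Elovl3*, *Fads2* and *Fads1* (3 genes) were higher with K382Q and *Elovl6* and *Fads3* (2 genes) were lower at an adjusted p under 0.05. Among all genes tested, as above, 11.1% were higher and 36.9% lower by the same criterion. *Elovl3* was the only member past a 2-fold change, where 1.27% of all genes were higher and 2.61% were lower. The median log2 fold change was 0.15 over the 9 members and -0.14 over all genes tested. With median-ratio scaling of the libraries the median of all genes moved to 0.0032, each of the 5 members called kept its direction and its call, and *Elovl1*, *Elovl4* and *Elovl5* were called higher as well, so that 6 members were higher, against 19.8% of all genes.

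**Figure D1:**
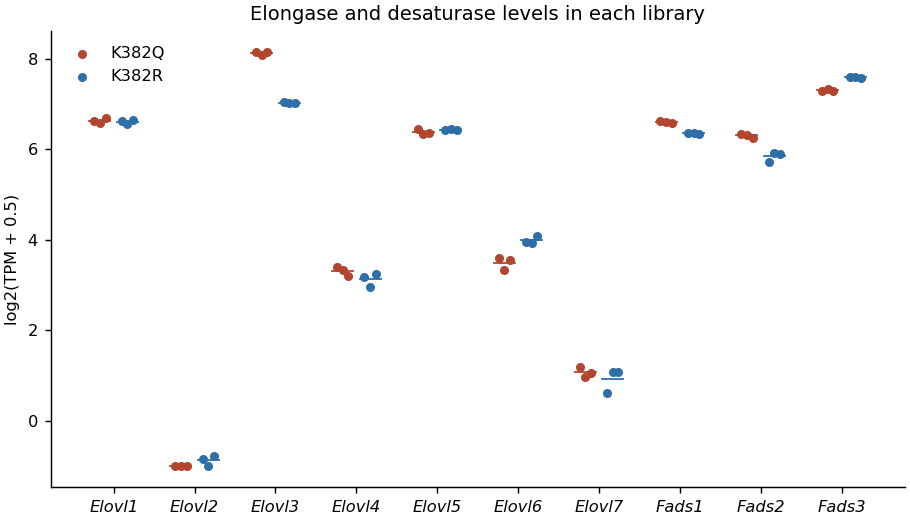
Each point is the log2(TPM + 0.5) of 1 library for each of the 10 genes, and short lines are means of the 3 libraries of a group. The points of *Elovl3*, *Fads1* and *Fads2* lie higher in K382Q, those of *Elovl6* and *Fads3* lie lower, and those of the other genes overlap.

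*Elovl3*, the elongase of brown and beige fat, was the most abundant of the 10 in PPARγ2 K382Q-overexpressing cells. Its TPM was 282, 272 and 283 in those libraries and 131, 129 and 130 in PPARγ2 K382R-overexpressing cells. The groups did not overlap, and the spread within each was small beside the gap between them. The log2 fold change was 1.10 (SE 0.028, 95% interval 1.03 to 1.17, limma adjusted p = 2.93e-07). By mean TPM, *Elovl3* stood at place 554 of 15426 genes in PPARγ2 K382Q- and at place 1456 in PPARγ2 K382R-overexpressing cells. The gene lies on GRCm39 chr19:46120336-46124133, plus strand, and its last 10 bases are shared with *Pitx3* on the other strand. *Pitx3* was listed at 5.65 ± 0.590 against 1.85 ± 0.466 TPM, and since the library kit is not stated to mark strand, reads in those bases cannot be assigned to either gene.

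The 3 genes whose pattern over the 6 libraries was most like that of *Elovl3*, among 10644 other genes with a mean of at least 5 TPM, were *Acer2*, *Decr1* and *Pdk1*. *Acer2*, an alkaline ceramidase, had a Pearson r of 0.9999 and a mean of 99.7 ± 3.43 against 38.9 ± 0.141 TPM. *Decr1*, which handles double bonds in the mitochondrial oxidation of unsaturated fatty acids, had an r of 0.9995 and 195 ± 3.15 against 137 ± 1.08 TPM. *Pdk1*, a kinase that inhibits pyruvate dehydrogenase, had an r of 0.9994 and 71.3 ± 0.168 against 31.1 ± 0.163 TPM. The libraries form 2 groups, so r mainly reports a gap between them, and 194 genes had an r of at least 0.99.

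The other elongases of saturated and monounsaturated chains did not follow *Elovl3*. *Elovl6*, which turns palmitate into stearate, had a TPM of 11.6, 9.61 and 11.2 in PPARγ2 K382Q-overexpressing cells and of 15.1, 14.8 and 16.4 in PPARγ2 K382R-overexpressing cells. All 3 values of the first group lay below all 3 of the second. The log2 fold change was -0.50 (SE 0.084, 95% interval -0.69 to -0.30, limma adjusted p = 0.00194). On the coverage scale it was -0.21 with the same pseudocount, which is of the size of *Elovl6* coverage itself, and the log2 ratio of the mean coverages without a pseudocount was -0.42. Its coverage was 2.73 to 4.63 reads per base over the libraries. Within a library, *Elovl3* TPM was 24.3, 28.3 and 25.2 times that of *Elovl6* with K382Q and 8.68, 8.74 and 7.90 times with K382R.

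*Elovl1*, the broadly expressed elongase of very long saturated chains, was at 98.6, 94.9 and 103 TPM in PPARγ2 K382Q- and at 98.6, 93.5 and 99.9 TPM in PPARγ2 K382R-overexpressing cells. The values of the groups overlapped, and the 95% interval of the log2 difference was -0.078 to 0.12 (limma adjusted p = 0.736). With median-ratio scaling its log2 fold change was 0.17 (limma adjusted p = 0.013), so its call depended on the scaling. The ratio of *Elovl3* to *Elovl1*, which does not change when a library is multiplied by a factor, was 2.83 ± 0.063 against 1.34 ± 0.043 without overlap. *Elovl1* shares 53 bases at its end with *Cdc20* on the other strand, which was listed at 79.9 ± 0.379 against 105 ± 6.09 TPM.

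*Elovl7*, a further elongase of this branch, was low. It was listed at 1.79, 1.46 and 1.57 TPM with K382Q and at 1.03, 1.63 and 1.60 TPM with K382R. The K382R library at 1.03 stood below the other five, which overlapped. The 95% interval of the log2 difference was -0.26 to 0.55 (limma adjusted p = 0.531), and its mean read depth per base was only 3.11 to 4.49 over the libraries.

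*Elovl4*, which makes the longest chains, had 10.0, 9.54 and 8.67 TPM in PPARγ2 K382Q- and 8.55, 7.29 and 9.0 TPM in PPARγ2 K382R-overexpressing cells. The groups overlapped, with a 95% interval of the log2 difference from -0.047 to 0.40 (limma adjusted p = 0.172). It was called higher with median-ratio scaling (log2 fold change 0.32, limma adjusted p = 0.0287) and with quantile normalization (log2 fold change 0.33, limma adjusted p = 0.026).

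In the polyunsaturated branch, both front-end desaturases rose with K382Q, whereas their partner elongase *Elovl5* was not called. *Fads2*, which places the first double bond, had 80.9, 79.5 and 75.9 TPM with K382Q and 52.5, 59.6 and 58.6 TPM with K382R. The lowest K382Q library lay above the highest K382R library. The log2 fold change was 0.47 (SE 0.054, 95% interval 0.34 to 0.59, limma adjusted p = 0.000284).

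*Fads1*, which places the next double bond after elongation, had 97.9, 97.3 and 94.7 TPM with K382Q and 81.8, 81.9 and 80.8 TPM with K382R. Again the groups did not overlap. The log2 fold change was 0.24 (SE 0.030, 95% interval 0.17 to 0.31, limma adjusted p = 0.000378). *Fads2* rose relative to *Fads1*, with a ratio of 0.826, 0.817 and 0.801 against 0.642, 0.728 and 0.725 in single libraries. The K382R library with the lowest *Fads2* also had the lowest ratio.

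*Elovl5*, which extends the products of FADS2, was at 87.3, 80.8 and 81.1 TPM with K382Q and at 85.5, 86.9 and 85.1 TPM with K382R. The highest value belonged to a K382Q library, and so did the lowest. The 95% interval of the log2 difference was -0.14 to 0.043 (limma adjusted p = 0.358). Its sign was not stable, since the log2 fold change was 0.10 with median-ratio scaling (limma adjusted p = 0.0448) and 0.098 with quantile normalization (limma adjusted p = 0.0661). The ratio of *Fads2* to *Elovl5* was 0.948 ± 0.031 against 0.663 ± 0.043 without overlap.

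*Elovl2*, the elongase of longer polyunsaturated chains in liver, was listed at 0 in all 3 K382Q libraries and in 1 K382R library, and at 0.060 and 0.081 TPM in the others. It did not pass the filter and was not tested. At this depth, no difference in *Elovl2* was detectable.

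*Fads3*, the desaturase of sphingoid bases, ran against its neighbours *Fads1* and *Fads2*. It was listed at 155, 160 and 155 TPM in PPARγ2 K382Q- and at 192, 192 and 190 TPM in PPARγ2 K382R-overexpressing cells. All 3 K382Q libraries lay below all 3 K382R libraries. The log2 fold change was -0.29 (SE 0.028, 95% interval -0.35 to -0.22, limma adjusted p = 0.000109), and it was -0.13 with median-ratio scaling (limma adjusted p = 0.0107).

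**Figure D2:**
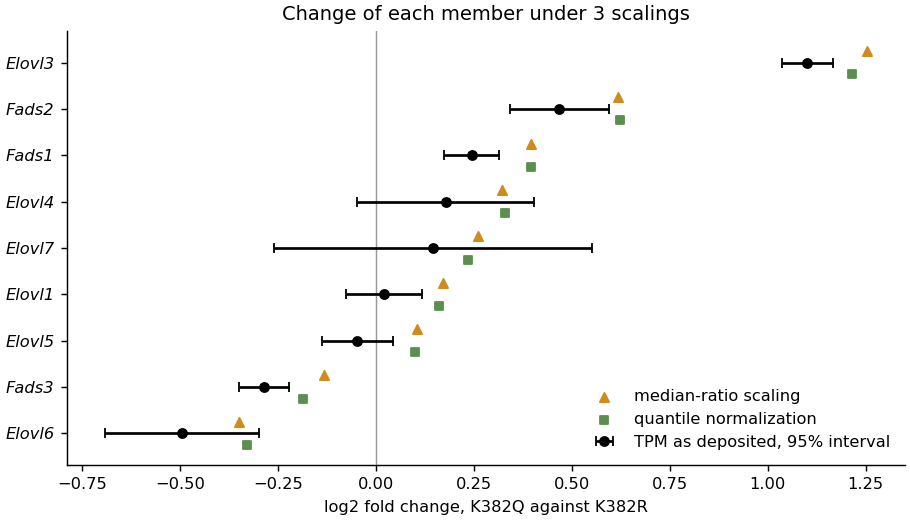
Points with bars are log2 fold changes of K382Q against K382R from TPM as deposited with 95% intervals (3 libraries a group). Triangles and squares are the same after median-ratio scaling and quantile normalization. Both lie to the right of the deposited TPM for all 9 genes, *Elovl5* changes sign, and *Elovl3*, *Fads2* and *Fads1* stay above 0 while *Fads3* and *Elovl6* stay below it.

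In the 3 members that were higher, all K382Q libraries lay above all K382R libraries, as was so for 14.1% of all genes tested. In the 2 that were lower, all K382Q libraries lay below, as was so for 42.8% of all genes. The other 4 members tested overlapped.

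The 3 *Fads* genes lie together on GRCm39 chr19, with *Fads3* at chr19:10018933-10037474 on the plus strand, *Fads2* at chr19:10040129-10079110 on the minus strand and *Fads1* at chr19:10160252-10174241 on the plus strand. *Fads3* and *Fads2* point toward each other, and their annotated ends are 2655 bases apart. The starts of *Fads2* and *Fads1* are 81.1 kb apart. The elongases are spread over other places, with *Elovl1* at chr4:118285290-118290150, *Elovl2* at chr13:41335857-41373881, *Elovl4* at chr9:83660745-83688330, *Elovl5* at chr9:77824646-77891801, *Elovl6* at chr3:129326004-129432144 and *Elovl7* at chr13:108350938-108422217.

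The makeup of the *Fads* family shifted, while its summed level overlapped between the mutants with TPM as deposited. The 3 genes together had 334, 337 and 326 TPM with K382Q and 326, 333 and 330 TPM with K382R, but with median-ratio scaling the sums were 349 ± 7.42 and 312 ± 3.35 without overlap. *Fads3* made up 47.2% ± 0.65 of the sum with K382Q and 58.0% ± 0.69 with K382R. *Fads2* made up 23.7% ± 0.47 against 17.2% ± 1.00, and *Fads1* 29.1% ± 0.23 against 24.7% ± 0.32. In each case the groups did not overlap. The ratio of *Fads2* to *Fads3* was 0.502 ± 0.017 against 0.297 ± 0.021, a ratio that does not change when a library is multiplied by a factor.

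The 7 elongases, in contrast, differed in their sum, with 492, 469 and 488 TPM with K382Q and 340, 333 and 342 TPM with K382R. *Elovl3* made up 57.8% ± 0.37 of this sum with K382Q and 38.4% ± 0.42 with K382R. *Elovl1* made up 20.4% ± 0.51 against 28.8% ± 0.63, *Elovl5* 17.2% ± 0.58 against 25.4% ± 0.61 and *Elovl6* 2.24% ± 0.17 against 4.56% ± 0.21. Without *Elovl3*, the elongases summed to 204 ± 6.65 TPM with K382Q and 208 ± 4.0 TPM with K382R, and the libraries overlapped. With median-ratio scaling these sums were 214 ± 4.87 and 197 ± 3.40 without overlap.

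**Figure D3:**
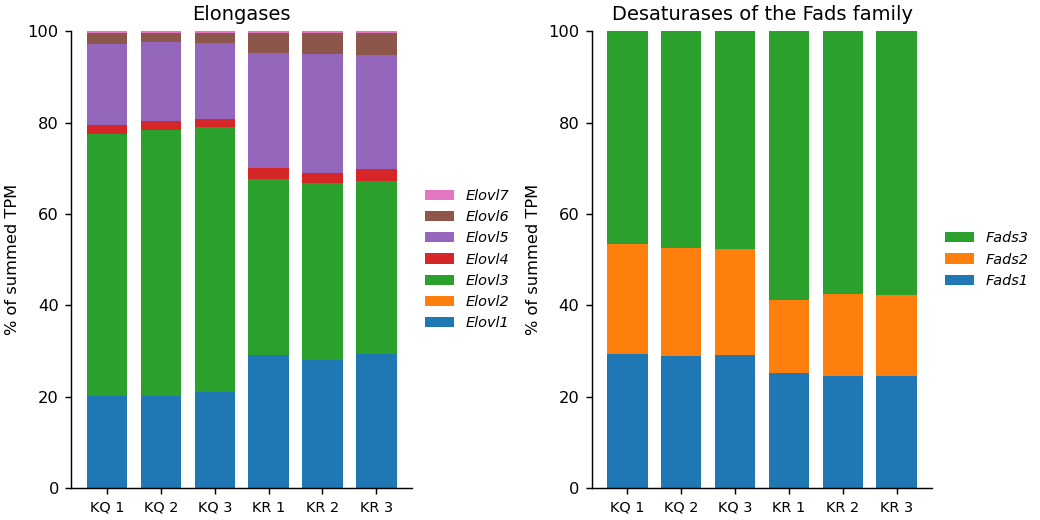
Bars show, for each library (KQ for K382Q, KR for K382R), the percentage of the summed TPM taken by each elongase (left) and each *Fads* gene (right). *Elovl3* takes a larger and *Fads3* a smaller percentage in all 3 K382Q libraries.

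To set the branches side by side, the summed TPM of *Elovl1*, *Elovl3*, *Elovl6* and *Elovl7* was divided by that of *Elovl2*, *Elovl5*, *Fads1* and *Fads2* in each library. The saturated branch summed to 390 ± 10.7 TPM with K382Q and 244 ± 4.32 TPM with K382R, and the polyunsaturated branch to 258 ± 7.18 and 224 ± 4.30 TPM. The ratio was 1.48, 1.47 and 1.58 in PPARγ2 K382Q- and 1.12, 1.05 and 1.10 in PPARγ2 K382R-overexpressing cells, without overlap. The difference rested on *Elovl3*. When *Elovl3* was left out, a step added after the data were seen, the ratio was 0.421, 0.411 and 0.459 with K382Q and 0.522, 0.481 and 0.525 with K382R, so that the order of the groups turned around. These ratios are descriptions, and no test was made on them.

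**Figure D4:**
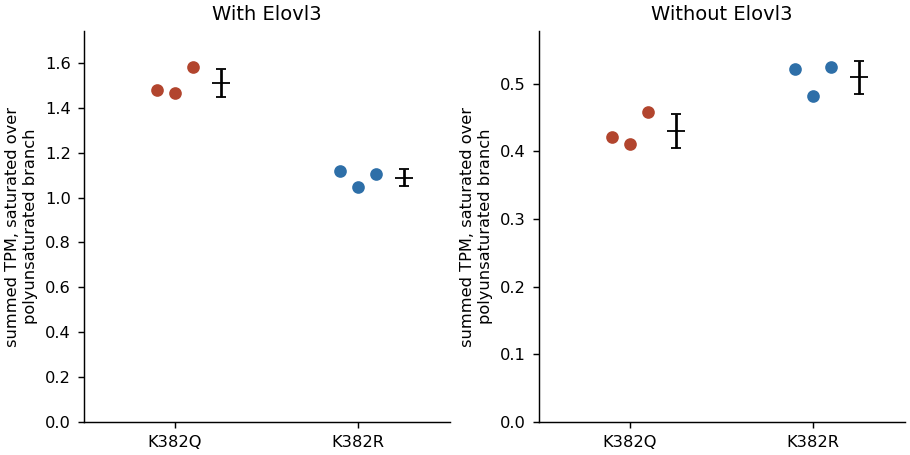
Points are the summed TPM of the saturated branch over that of the polyunsaturated branch in each library, with *Elovl3* (left) and without it (right), and bars are mean ± SD of 3 libraries. K382Q lies above K382R with *Elovl3* and below it without.

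By TPM, the order of levels in PPARγ2 K382Q-overexpressing cells was *Elovl3*, *Fads3*, *Elovl1*, *Fads1*, *Elovl5*, *Fads2*, *Elovl6*, *Elovl4*, *Elovl7* and *Elovl2*. The libraries of *Elovl1* and *Fads1*, of *Elovl5* and *Fads2*, and of *Elovl6* and *Elovl4* overlapped. In PPARγ2 K382R-overexpressing cells *Fads3* came first, ahead of *Elovl3*, and *Elovl5* stood before *Fads1*, with no overlap between neighbours. The order depended on the measure of level. By read depth per base of the gene and per aligned Gb, which the tables give as coverage, *Elovl5* (2.47 with K382Q) stood below *Elovl4* (3.81), and *Elovl6* (0.438) stood below *Elovl7* (0.635). With K382R, *Elovl6* (0.584) stood above *Elovl7* (0.493) on that scale. Relative to FPKM, coverage was lowest for *Elovl5* and *Elovl6*, at 7.21% to 7.22% and 9.62% to 9.95% of the highest ratio in a library, against 94.6% to 94.8% for *Elovl3* and 93.9% to 95.3% for *Fads3*. The ratio was 97.75% to 99.17% for *Elovl4* and 83.63% to 100% for *Elovl7*. It was checked against annotation in 320 genes of K382Q replicate 1, none a member. In 96.25% it lay, within 2%, between shortest and longest transcript length over the length of all annotated exons. Where that holds, a low ratio means that coverage is averaged over more bases than a transcript has. Coverage then does not order genes by transcript level. *Elovl3* and *Fads3* led on both scales. Between the mutants, the calls of members were the same on either scale except for *Elovl4*, and the uncalled change of *Elovl5* differed in sign.

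Promoter sequences were set beside these values because *Fads2* and *Fads3* moved in opposite directions and *Elovl6* fell. RefSeq windows of 300 bases, from 250 before to 50 after a start site (GRCm38.p6), were given for 8 of 10 members, and *Elovl3* and *Fads1* had none. The windows were found again, at 1 place each, in GRCm39. On both strands, they were searched for CCAAT (the NF-Y box), CACGTG (an E-box), AGGTCA (a nuclear receptor half-site), GTCANAGGT (inner letters of the direct repeat that PPAR and RXR bind) and TCACNCCAC (a sterol regulatory element). Matches are in capitals below. The windows are the downstream start of *Elovl1* (chr4:118286648-118286947, plus strand), shown for the only direct repeat letters found, *Elovl6* (chr3:129325785-129326084, plus), *Fads2* (chr19:10078818-10079117, minus) and *Fads3* (chr19:10018662-10018961, plus).
Elovl1, downstream start: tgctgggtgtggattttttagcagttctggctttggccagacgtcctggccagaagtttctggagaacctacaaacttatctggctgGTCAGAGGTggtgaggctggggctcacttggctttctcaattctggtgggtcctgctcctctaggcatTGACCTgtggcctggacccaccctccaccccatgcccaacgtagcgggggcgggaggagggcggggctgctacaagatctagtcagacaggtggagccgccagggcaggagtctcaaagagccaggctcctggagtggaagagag
Elovl6: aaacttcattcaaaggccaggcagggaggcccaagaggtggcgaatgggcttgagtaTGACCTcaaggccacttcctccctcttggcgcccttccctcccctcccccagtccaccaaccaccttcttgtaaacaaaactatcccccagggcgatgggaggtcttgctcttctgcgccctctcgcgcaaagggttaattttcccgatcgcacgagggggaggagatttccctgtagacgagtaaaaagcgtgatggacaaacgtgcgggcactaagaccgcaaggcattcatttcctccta
Fads2: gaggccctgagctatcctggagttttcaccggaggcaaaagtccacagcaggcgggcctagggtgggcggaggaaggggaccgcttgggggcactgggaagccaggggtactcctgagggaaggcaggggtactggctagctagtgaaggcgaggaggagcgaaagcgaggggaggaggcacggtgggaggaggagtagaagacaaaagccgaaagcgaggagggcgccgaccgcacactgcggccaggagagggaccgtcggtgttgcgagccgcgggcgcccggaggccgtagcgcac
Fads3: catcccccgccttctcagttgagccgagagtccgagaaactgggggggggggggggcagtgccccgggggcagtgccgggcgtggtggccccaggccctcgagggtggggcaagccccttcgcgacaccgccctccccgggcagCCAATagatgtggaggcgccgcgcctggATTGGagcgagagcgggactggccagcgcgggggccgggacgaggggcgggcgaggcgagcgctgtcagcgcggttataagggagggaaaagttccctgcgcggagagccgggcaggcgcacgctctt

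GTCANAGGT was found in 1.142% of all 32851 windows, and among the members only in this window of *Elovl1*, whose level was called different only after median-ratio scaling or quantile normalization. AGGTCA, found in 16.3% of all windows, occurred once there and once in *Elovl6*, on the reverse strand as TGACCT in both. CCAAT, found in 37.4% of all windows, occurred in *Fads3* once on each strand and also in windows of *Elovl1*, *Elovl4* and *Elovl5*. The *Fads2* window held none of the 5 motifs. CACGTG, found in 7.15% of all windows, occurred in *Elovl4* and *Elovl5*, and TCACNCCAC, found in 1.24%, in no window of a member. These matches are a description of letters in the windows and not of binding.

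Of 72 other genes of fatty acid elongation, desaturation and use, 61 were tested, and limma called 21 higher with K382Q and 25 lower, where the shares over all genes were 11.1% and 36.9%. With median-ratio scaling 30 were higher and 15 lower, where the shares over all genes were 19.8% and 20.4%. Apart from *Acaca*, the genes named below kept their direction under both other scalings, median-ratio and quantile.

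The later steps of the elongation cycle showed no common direction, with 2 higher, 2 lower and 2 not called of 6 tested. *Hacd3*, a dehydratase of the cycle, was at 39.5 ± 1.27 against 53.7 ± 1.36 TPM (log2 fold change -0.44) and *Hacd2* at 32.7 ± 1.28 against 40.3 ± 1.73 TPM (-0.30). *Hacd1*, the muscle-type dehydratase, was at 43.9 ± 5.59 against 33.8 ± 5.30 TPM (0.38, with overlapping libraries and a call in 11 of 17 alternatives, limma adjusted p up to 0.128), and *Tecr*, the final reductase, at 247 ± 3.10 against 223 ± 3.21 TPM (0.14).

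Of 7 stearoyl-CoA and other lipid desaturases, 5 were tested, and 3 were higher and 1 lower. The 3 higher were stearoyl-CoA desaturases, which put a double bond into palmitate and stearate. *Scd1* was at 3560 ± 146 against 2150 ± 51.5 TPM (log2 fold change 0.73), *Scd2* at 1832 ± 26.1 against 993 ± 17.8 TPM (0.88) and *Scd3* at 59.2 ± 1.77 against 22.1 ± 1.61 TPM (1.40). *Scd4*, the fourth of them, was at 1.78 ± 1.72 against 0.882 ± 0.912 TPM with overlapping libraries and was not called (0.66, limma adjusted p = 0.389). These genes are close copies, so reads may be split between them. *Degs1*, which desaturates dihydroceramide, fell from 147 ± 4.2 to 105 ± 4.27 TPM (-0.49). Of the 6 electron donors of desaturases, 1 was higher and 4 lower, where 11.1% of all genes tested were higher and 36.9% lower. *Cyb5a*, cytochrome b5, had a log2 fold change of -0.35, *Cyb5b*, its mitochondrial form, of -0.29 and *Cyb5r1*, a reductase, of 0.29. With median-ratio scaling 2 of the 4 stayed lower and with quantile normalization 3, where 20.4% and 21% of all genes were lower.

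Of 6 genes that set the supply of malonyl-CoA and palmitate, through synthesis or breakdown, 3 were higher and 3 lower. *Acacb*, the acetyl-CoA carboxylase at mitochondria, was at 37.4 ± 1.08 against 15.3 ± 0.467 TPM (log2 fold change 1.26), and *Acss2*, which makes acetyl-CoA from acetate, at 171 ± 3.70 against 73.2 ± 3.83 TPM (1.22). *Mlycd*, which breaks malonyl-CoA down, changed by 0.23 and *Acly*, the citrate lyase, by -0.25. With median-ratio scaling *Acly* was the only one of the 6 called lower. *Acaca*, the cytosolic carboxylase, was called lower at -0.11 (limma adjusted p = 0.0487) but in only 3 of 17 alternatives, and its sign turned with median-ratio scaling (0.043) and quantile normalization (0.063).

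All 4 ceramide synthases tested, of 6, were lower, against 36.9% of all genes. *Cers5* was at 87.0 ± 3.11 against 143 ± 2.05 TPM (log2 fold change -0.72) and *Cers4* at 4.40 ± 0.353 against 6.30 ± 0.483 TPM (-0.47). *Cers2*, which joins very-long-chain acyl groups to sphingoid bases, was at 286 ± 3.46 against 324 ± 1.17 TPM (-0.18). With median-ratio scaling *Cers5* and *Cers4* kept their calls, while *Cers2* was at -0.024 (limma adjusted p = 0.493) and *Cers6* at -0.023 (limma adjusted p = 0.75). Over the 17 alternatives, *Cers2* was called in 16 and *Cers6* in 8.

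Of 12 acyl-CoA synthetases, 8 were tested, and 3 were higher and 4 lower with TPM as deposited. The counts were 4 and 3 with median-ratio scaling and 4 and 2 with quantile normalization. The shares of all genes higher and lower were 11.1% and 36.9% as deposited. They were 19.8% and 20.4% with median-ratio scaling and 19.1% and 21% with quantile normalization. *Slc27a1*, a fatty acid transporter with synthetase activity, had the largest change of the lists, at 92.5 ± 2.39 against 21.4 ± 1.10 TPM (log2 fold change 2.09). *Acsl3* was at 105 ± 4.52 against 69.2 ± 3.71 TPM (0.60), and *Acsl1*, the main adipocyte form, at 621 ± 19.2 against 861 ± 10.5 TPM (-0.47).

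Of 8 genes for the peroxisomal handling of very-long-chain and polyunsaturated fatty acids, 4 were higher and 2 lower with TPM as deposited. With either other scaling 6 were higher and 1 lower. The share of all genes higher was 11.1% as deposited, 19.8% with median-ratio scaling and 19.1% with quantile normalization. The share lower was 36.9%, 20.4% and 21%. *Acaa1b*, a thiolase, was at 353 ± 10.9 against 146 ± 1.85 TPM (log2 fold change 1.27). *Abcd2*, an importer of very-long-chain acyl-CoA, was at 2.70 ± 0.062 against 4.86 ± 0.625 TPM (-0.74).

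Of 9 acyltransferases that place acyl chains in phospholipids, 7 were tested. *Lpcat3*, which prefers arachidonoyl-CoA, was at 328 ± 3.19 against 260 ± 4.52 TPM (log2 fold change 0.34) and *Agpat3* at 188 ± 6.36 against 147 ± 1.03 TPM (0.35). *Lpcat1* was at 12.7 ± 0.262 against 21.1 ± 1.1 TPM (-0.71) and *Lpcat4* at 1.30 ± 0.119 against 2.70 ± 0.229 TPM (-0.83). The other 3 were not called.

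Of 11 known regulators of elongase and desaturase genes, 3 were higher, 3 lower and 5 not called with TPM as deposited. With median-ratio scaling 7 were higher and 1 lower, and with quantile normalization 4 and 1. Among all genes, 19.8% were higher and 20.4% lower with median-ratio scaling, and 19.1% and 21% with quantile normalization. With TPM as deposited these shares were 11.1% and 36.9%. *Mlxipl*, which encodes ChREBP, was at 10.3 ± 1.32 against 5.91 ± 0.519 TPM (log2 fold change 0.75) and *Ppara* at 4.08 ± 0.185 against 2.39 ± 0.424 TPM (0.68). *Pparg* was at 1200.3 ± 119 against 1611 ± 21.1 TPM (-0.43), a level in which reads of the endogenous gene and of the vector were not told apart. *Srebf1*, which encodes the SREBP1 factors, was at 253 ± 12.1 against 250 ± 0.941 TPM (0.015, limma adjusted p = 0.765). Of 17 alternatives, only 1 called it, as higher with median-ratio scaling (0.17, limma adjusted p = 0.0156). With quantile normalization *Srebf1* was at 0.11 (limma adjusted p = 0.0513).

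**Figure D5:**
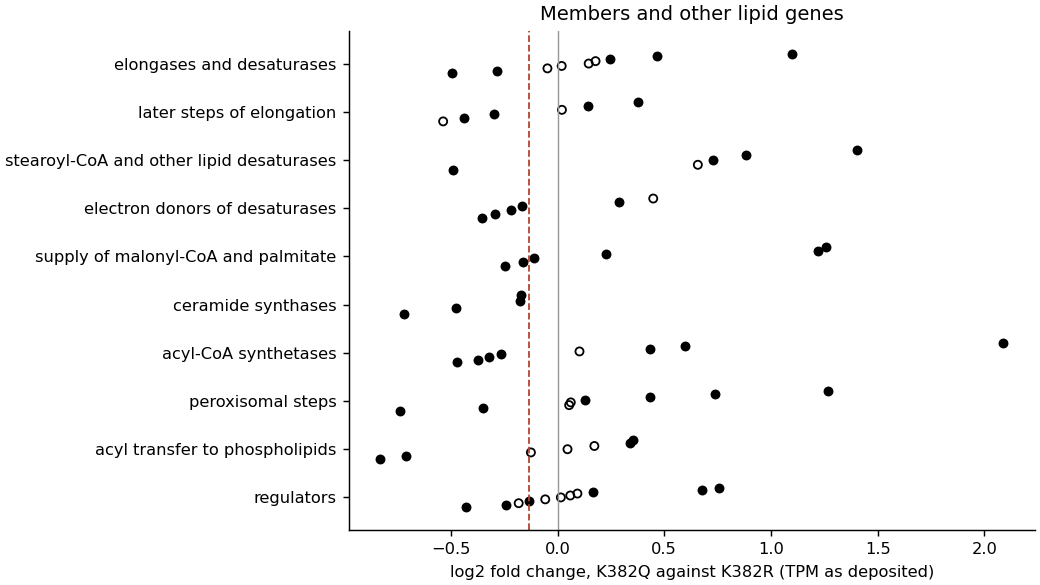
Each point is the log2 fold change of 1 gene, K382Q against K382R, for the elongases and desaturases (top row) and for 9 lists of other lipid genes. Filled points passed an adjusted p under 0.05 in limma, open points did not, and the dashed line is the median of all genes tested (-0.14). The ceramide synthases lie below 0 and the 4 stearoyl-CoA desaturases above it.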

How the data were processed

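RNA-seq of 3 PPARγ2 K382Q and 3 PPARγ2 K382R libraries was analysed, grouped by sample title. Per the labels and the study's methods, the authors prepared libraries with a NEBNext Ultra kit, aligned reads to GRCm39 with HISAT2 and quantified genes with StringTie; the annotation release is not given in the sources used here. The authors deposited per gene the coverage (a signal, mean read depth per base), FPKM and TPM. TPM shows shares of transcripts, not amounts. Counts were not analysed here, so no counting interval is given and 3 libraries a group limit the precision. Entries that repeated a gene ID (3 to 5 per library) were summed.

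Log2(TPM + 0.5) was compared with limma 3.58.1 (R 4.3.3, intensity trend) over the 15426 genes that reached 0.5 TPM in 3 or more libraries, adjusted by Benjamini-Hochberg. The pseudocount understates changes of low genes. The test was tried on simulated data. Aligned length is the highest ratio of coverage to FPKM in a library. Figures and ratios used Python 3.11.15, pandas 2.3.3, numpy 2.4.6 and matplotlib 3.10.9. Alternatives were 2 other pseudocounts, 2 other filters, FPKM, median-ratio scaling, quantile normalization, no trend, array weights, a replicate block and each library left out; coverage per aligned Gb, the rescaled family sums and the branch ratio without *Elovl3* were chosen after seeing the data.

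All 10 members are named, with at most 4 called genes per list of other lipid genes, by size of change, and the 3 genes most correlated with *Elovl3*; *Srebf1*, *Scd4*, *Acaca* and the marker genes were named after their values were seen. Members and lists were chosen with earlier results of these data known. Promoter windows came from RefSeq. Results for some single genes of the lists are left out of the text.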

Additional observations from a re-analysis of the deposited data

How the results depend on the processing

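*Elovl3*, *Elovl6*, *Fads1*, *Fads2* and *Fads3* kept their direction and stayed under an adjusted p of 0.05 (limma) in all 17 alternatives, with log2 fold changes of 1.09 to 1.25, -0.55 to -0.21, 0.24 to 0.40, 0.41 to 0.62 and -0.30 to -0.13. The number of members higher rose from 3 to 6 with median-ratio scaling and to 5 with quantile normalization, where the median of all genes moved from -0.14 to 0.0032 and -0.0048 and the share of all genes called higher rose from 11.1% to 19.8% and 19.1%. The number lower stayed at 2 and the number past 2-fold at 1. *Elovl5* turned from -0.047 to 0.036 with FPKM, 0.10 with median-ratio scaling, 0.098 with quantile normalization and 0.031 with coverage per aligned Gb (added after the data were seen), where *Elovl4* was also called higher (0.24, limma adjusted p = 0.0479). Among uncalled members, *Elovl1* ranged from -0.0093 to 0.047 with 1 library left out. It was -0.0093 when K382Q replicate 3 and -0.0091 when K382R replicate 2 was omitted. *Elovl7* ranged from -0.0097 (K382R replicate 1 omitted) to 0.23. With 1 library left out, *Elovl4* ranged from 0.094 to 0.24 and *Elovl5* from -0.083 to -0.028, and neither was called. The cause of these shifts was not tested. Leaving out each library gave 3 members higher and 2 lower throughout. Of the other lipid genes, 15 were lower with median-ratio scaling and 16 with quantile normalization, against 25. The share of all genes called lower went from 36.9% to 20.4% and 21%. The number of these lipid genes higher was 30 and 26, against 21.

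The log2 ratio of the branches between the mutants was 0.47, with 0.44 to 0.49 when 1 library was left out, 0.53 without *Elovl6*, 0.57 with coverage per aligned Gb and -0.24 without *Elovl3*, the last 2 added after the data were seen. Same-numbered libraries did not deviate together over all genes (correlations of -0.018, 0.051 and 0.022). These values cannot tell whether same-numbered cultures were handled together. With the replicate block 3 members were higher, 2 lower and 1 past 2-fold, and over all genes 1600 were higher and 5387 lower, against 1717 and 5698. Depth limits *Elovl7*, under 5 reads per base, and *Elovl2*, near 0. *Elovl6* coverage was as low, at 2.73 to 4.63 reads per base. Relative to FPKM, however, it was at 9.62% to 9.95% of the highest ratio in a library, against 83.63% to 100% for *Elovl7*. Equal coverage of these genes therefore need not mean equal depth over the transcript. The mean TPM of *Elovl6* was above that of *Elovl4*, which had 21.0 to 28.8 reads per base. Relative to FPKM, *Elovl4* coverage was at 97.75% to 99.17% of the highest ratio in a library. *Elovl6* was not among the 320 genes whose ratio was checked against annotation, so which scale reflects its read support was not tested.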
